A study of Mus musculus with 2 samples.

Results

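The 8 mouse genes described here encode the enzymes that start the breakdown of the branched-chain amino acids leucine, isoleucine and valine, together with the kinase and the phosphatase that set the activity of the committed step. They are Bcat1, Bcat2, Bckdha, Bckdhb, Dbt, Dld, Bckdk and Ppm1k. They were chosen by gene symbol, and all 8 were found among the 46095 genes of the count table. Of these, 7 had at least 20 counts over both libraries and are called counted below, while Bcat1 had 1.

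RNA was sequenced from AML (acute myeloid leukaemia) cells able to initiate the disease, sorted from the bone marrow of C57BL/6 mice aged 8 weeks for surface Mac1 (Itgam) and c-Kit (Kit). There are 2 libraries. The first carries the genotype label wild type and a title ending in Scr, and the other the genotype label P2x7-KO and a title ending in KD. They are called the WT-labelled and the KO-labelled library. The oncogene that drove the leukaemia, the number of mice behind a library and the way P2x7 was disrupted were not given in the sources used here. With 1 library per group there is no replicate error and no test between genotypes, so every interval given is an exact 95% interval of counting error alone.

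In this pathway a branched-chain aminotransferase first moves the amino group to alpha-ketoglutarate, which gives glutamate and a branched-chain keto acid. BCAT1 does this in the cytosol and BCAT2 in mitochondria. The keto acid is then decarboxylated without return by the mitochondrial BCKDH complex, built from a decarboxylase of alpha and beta chains (BCKDHA and BCKDHB), a transacylase core that carries lipoic acid (DBT) and dihydrolipoamide dehydrogenase (DLD), which also serves the pyruvate and alpha-ketoglutarate dehydrogenase complexes. BCKDK phosphorylates the alpha chain and switches the complex off, and the phosphatase PPM1K removes the phosphate. In blood cells the pathway is best known through BCAT1, whose raised level has been described in several myeloid leukaemias.

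The libraries held 12456212 (WT-labelled) and 12435916 (KO-labelled) counts. P2rx7, which encodes P2x7, went against its label, at 18.8 CPM (TMM-scaled counts for 1000000 per library) in the WT-labelled and 42.6 CPM in the KO-labelled library, a ratio of 2.27 (1.94 to 2.66). Its log2 ratio of 1.18 came under 2-fold when corrected for transcript length (0.88, 0.659 to 1.11) and for length and GC content (0.94, 0.713 to 1.17). Both sort markers were present, Kit at 45.95 and 67.6 CPM and Itgam at 186.9 and 542.6 CPM. Levels of markers of maturing cells also differed. Markers at least 2-fold apart with an interval excluding 1 follow each sum, beside 10.8% of all genes counted higher and 8.95% lower. The 10 monocyte and macrophage markers summed to 1313 and 3222 CPM, with 6 of 9 counted higher in the KO-labelled library and 1 lower. The 6 mast cell and basophil markers summed to 379.0 and 40.3 CPM (0 of 4 higher, 2 lower). Sums were 3474 and 3037 CPM for 10 neutrophil markers (1 of 9 higher, 1 lower). They were 76.5 and 94.4 CPM for 8 erythroid markers (2 of 3 higher, 0 lower). For 8 B lymphoid markers they were 131.8 and 99.3 CPM (2 of 4 higher, 1 lower). For 9 T and NK lymphoid markers they were 26.1 and 12.5 CPM (1 of 2 higher, 1 lower). For 6 stromal and endothelial markers they were 278.3 and 137.2 CPM (1 of 2 higher, 1 lower). Most lists held members going both ways, so a sum does not give the direction of each marker. The stromal and endothelial, erythroid, and T and NK sums came mostly from 1 marker in each library. The highest single-marker counts were 3371 and 1720, 915 and 1067, and 307 and 105, in that order. Those sums therefore say little about the other markers of their lists. Markers at 0 in both libraries included Trac and Fcer1a. The part of these cells in the results on the 8 genes was not tested, and in bulk RNA fewer cells of a type and less RNA per cell cannot be told apart.

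A gene was called when its scaled counts differed at least 2-fold between the libraries and the counting interval of the ratio excluded 1. By this rule 19.8% of the 13363 genes counted were called, 10.8% as higher and 8.95% as lower in the KO-labelled library. Of the 7 counted members, 1 was called higher (Ppm1k), 0 lower and 6 neither. This is near the share among all genes and so is not a result about the pathway. What the data do show is which enzymes of the pathway these cells transcribed. The members lay on both sides of equality, as did all genes counted (6714 above and 6649 below), so that too is not particular to the pathway.

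Transcription of the aminotransferase step rested on Bcat2 in both libraries. Bcat1 lies at chr6:144993835-145076184 on the minus strand and Bcat2 at chr7:45570153-45589711 on the plus strand (mm10, GENCODE M21). The 250 bases before a RefSeq start of each are shown because only the mitochondrial enzyme's gene was transcribed at a measurable level. They are from RefSeq (GRCm38.p6), written 5′ to 3′ on the strand of the gene, with CpG dinucleotides in capitals, at chr6:145076158-145076407 for Bcat1 and chr7:45569903-45570152 for Bcat2. RefSeq's table holds 2 starts for each of these genes, and the one nearest to the GENCODE start was taken; for Bcat1 it lies inside the GENCODE gene, so the window overlaps the first bases of that annotation.
Bcat1: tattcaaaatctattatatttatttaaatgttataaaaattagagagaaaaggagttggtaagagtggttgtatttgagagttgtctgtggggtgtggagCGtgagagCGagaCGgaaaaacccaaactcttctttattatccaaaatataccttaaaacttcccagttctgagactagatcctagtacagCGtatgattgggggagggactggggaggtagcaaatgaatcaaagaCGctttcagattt
Bcat2: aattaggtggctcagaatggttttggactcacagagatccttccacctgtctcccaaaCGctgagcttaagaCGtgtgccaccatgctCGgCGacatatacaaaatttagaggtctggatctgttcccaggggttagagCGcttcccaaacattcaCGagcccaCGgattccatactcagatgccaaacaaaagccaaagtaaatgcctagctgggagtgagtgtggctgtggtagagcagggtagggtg
The Bcat1 window holds 5 CpG and the Bcat2 window 7, against a median of 6 over 32807 windows of the same length. The E-box CACGTG, a site bound by MYC family proteins, was in neither window on either strand and in 6.02% of all windows. The letters CCAAT, searched on both strands, were found once in the Bcat1 window, as attgg on the strand shown, in none of the Bcat2 window, and in 33.8% of all windows.

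Bcat1 had 1 count in the WT-labelled library and 0 in the KO-labelled library. Both are within the limit of 3 counts, 0.247 and 0.236 CPM, so no fold is given. Bcat2 had 1232 and 751 counts, or 101.3 CPM (95.7 to 107.1) and 58.98 CPM (54.8 to 63.3). Bcat1 thus took 0.0811% of the counts of the aminotransferase pair in the WT-labelled library (0.00205 to 0.451, Clopper-Pearson), and 0 of 751 in the other allows a share of up to 0.49% by the same method and of 0.399% by the limit of 3 counts. Per kilobase of exon, the scale on which genes of different length can be compared, Bcat2 stood at 25.97 and 15.1 CPM, more than the 95% upper bound of Bcat1 by 528.5-fold and 486.6-fold. Transcripts of the cytosolic enzyme were therefore not detectable at this depth in either library.

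Bcat2 was lower in the KO-labelled library, 1.72-fold (1.57 to 1.88), which is under the 2-fold rule. It lay above 80.9% of genes counted by CPM per kilobase in the WT-labelled library and above 70.1% in the other. An antisense RNA gene, 0610005C13Rik, overlaps 622 bases of Bcat2 exons and had 0 counts in both libraries.

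**Figure D1:**
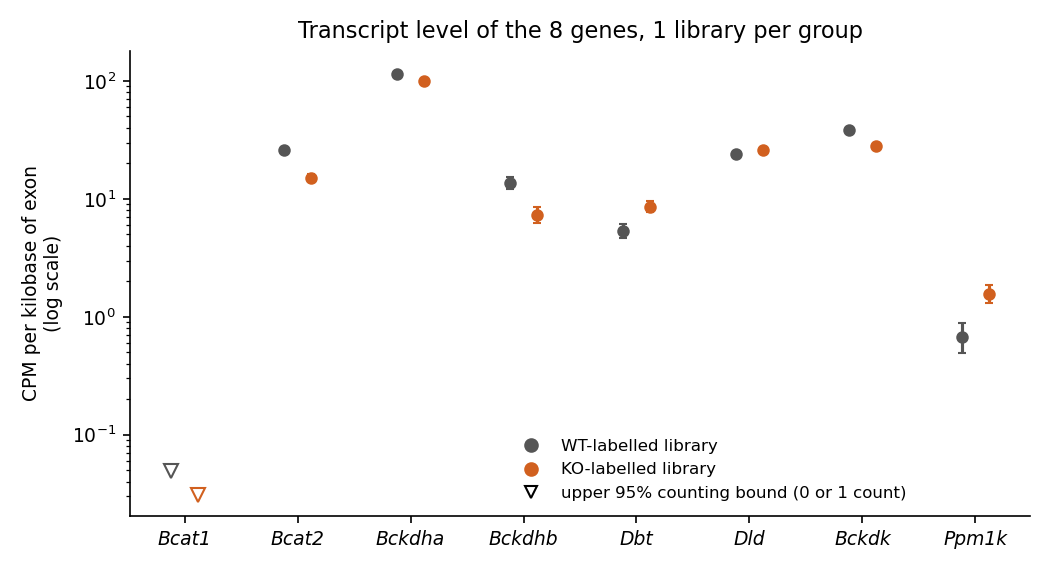
Level of each gene in the WT-labelled (grey) and KO-labelled (orange) library as CPM per kilobase of exon on a log axis, in pathway order, with exact Poisson 95% intervals; open triangles give the upper bound for Bcat1. Bckdha is highest at 115.0 and 100.2, Ppm1k lowest of the counted genes at 0.669 and 1.56, and Bcat1 is at the bottom with 1 and 0 counts.

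The subunits of the BCKDH complex were transcribed at very different levels, and did not differ between the libraries in the same direction. Bckdha, at chr7:25629946-25658981 on the minus strand, encodes the alpha chain that carries the regulatory phosphate. It had 2656 counts in the WT-labelled and 2422 in the KO-labelled library, or 115.0 and 100.2 CPM per kilobase, above 96.1% and 96.5% of genes counted. The ratio was 1.15-fold lower in the KO-labelled library (1.09 to 1.21), a log2 value of -0.20. Corrections are relative to the genes counted with a known length and GC content. Corrected for transcript length alone, the log2 value was 0.005 (-0.075 to 0.085), an interval that includes 0. With the correction for length and GC content it turned to 0.25 (0.173 to 0.333). The level of Bckdha is uncertain. B3gnt8, a glycosyltransferase gene on the opposite strand with 1326 and 1239 counts, overlaps 1171 bases of Bckdha exons, 61.7% of them. Without knowledge of the strand setting, reads of the overlapped part cannot be told apart.

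Bckdhb, at chr9:83925145-84124240 on the plus strand, encodes the beta chain that pairs with the alpha chain. It had 299 counts in the WT-labelled and 168 in the KO-labelled library, or 24.6 CPM (21.9 to 27.5) and 13.2 CPM (11.3 to 15.3). The beta chain gene was 1.86-fold lower in the KO-labelled library (1.54 to 2.26), the lowest ratio of the 7, and 11.3% of genes counted had a lower one. Corrected for length and GC, the log2 ratio went from -0.90 to -0.66 (-0.94 to -0.383).

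Dbt, at chr3:116513070-116549981 on the plus strand, encodes the transacylase core. Here the KO-labelled library was the higher, with 366 counts against 217, or 28.7 CPM (25.9 to 31.8) against 17.8 CPM (15.5 to 20.4). The ratio of 1.61 (1.36 to 1.91) is under the rule, and the log2 value went from 0.69 to 0.45 (0.207 to 0.703) with the same correction. Dld, at chr12:31331277-31351453 on the minus strand, encodes the dehydrogenase that reoxidises the lipoyl group. It had 1085 counts in the WT-labelled and 1212 in the KO-labelled library, or 89.2 and 95.2 CPM. The Dld ratio of 1.07 (0.982 to 1.16) was the only one of the 7 whose interval held 1, and its log2 value of 0.09 was 0.19 (0.068 to 0.307) with the correction for length and -0.07 with that for length and GC. With total count or DESeq2 scaling the lower bound came to just above equality (log2 0.043 and 0.011).

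Ratios of subunits within a library do not depend on how the libraries were scaled. Bckdha had 8.88 counts for each Bckdhb count in the WT-labelled library (7.88 to 10.04) and 14.4 in the KO-labelled library (12.3 to 16.96), a change of 1.62-fold (1.33 to 1.99). The count of Dbt for each count of Bckdhb went from 0.726 (0.607 to 0.867) to 2.18 (1.81 to 2.63), a change of 3.002-fold (2.31 to 3.90). This pair was chosen after the values were seen, as the subunits furthest apart. Its log2 change of 1.59 was 1.11 (0.738 to 1.49) with the correction for length and GC. Dld counts for each Dbt count went from 5 (4.32 to 5.81) to 3.31 (2.94 to 3.73). The change of Dbt over Bckdha, 1.85-fold (1.54 to 2.22), did not hold up after that correction, when the interval of the log2 change, 0.20 (-0.059 to 0.463), included 0.

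The enzymes that switch the complex off and on differed in opposite directions. Bckdk lies at chr7:127904082-127910221 on the plus strand and Ppm1k at chr6:57506502-57535468 on the minus strand. The bases before their starts are shown because these genes encode opposed enzymes, at chr7:127903823-127904072 for Bckdk and chr6:57535488-57535737 for Ppm1k, again from RefSeq (GRCm38.p6) and with CpG in capitals.
Bckdk: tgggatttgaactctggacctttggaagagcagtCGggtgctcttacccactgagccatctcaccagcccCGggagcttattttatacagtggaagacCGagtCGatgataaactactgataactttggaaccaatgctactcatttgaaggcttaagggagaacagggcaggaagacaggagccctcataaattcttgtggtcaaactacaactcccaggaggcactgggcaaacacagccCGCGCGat
Ppm1k: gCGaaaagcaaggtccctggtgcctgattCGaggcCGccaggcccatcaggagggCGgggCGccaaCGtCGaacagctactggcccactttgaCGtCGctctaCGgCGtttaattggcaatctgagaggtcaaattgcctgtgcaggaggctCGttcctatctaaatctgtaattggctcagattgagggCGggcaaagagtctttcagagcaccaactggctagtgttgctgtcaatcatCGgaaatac
The Ppm1k window holds 14 CpG and the Bckdk window 7, more than 70.7% and 53.7% of all windows. CCAAT was found 2 times by Ppm1k, where it reads attgg on the strand shown, and 1 time by Bckdk. The E-box was in neither. Windows were found for 7 of the 8 genes.

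Bckdk, the kinase gene, had 1710 counts in the WT-labelled and 1333 in the KO-labelled library, or 140.6 CPM (134.0 to 147.4) and 104.7 CPM (99.1 to 110.5). It was 1.34-fold lower in the KO-labelled library (1.25 to 1.44), with a log2 ratio of -0.43 and, corrected for length and GC, -0.36 (-0.467 to -0.258). Ppm1k, the phosphatase gene, had 49 and 120 counts, or 4.03 CPM (2.98 to 5.33) and 9.42 CPM (7.81 to 11.3). The Ppm1k ratio of 2.34 (1.66 to 3.33) made it the called member, and 92.5% of genes counted had a lower ratio. It came under 2-fold with the correction for length (log2 0.85, 0.362 to 1.36) and for length and GC content (log2 0.65, 0.163 to 1.16). Among the 12381 genes counted with a known length and GC content, 8.25% were then called higher by length and 6.12% lower (14.4% in all). By length and GC the shares were 8.11% and 5.48% (13.6%). With either correction 0 of the 7 members were called in either direction.

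Kinase transcripts outnumbered phosphatase transcripts in both libraries, by less in the KO-labelled library. There were 34.9 Bckdk counts for each Ppm1k count in the WT-labelled library (26.3 to 47.4) and 11.1 in the KO-labelled library (9.21 to 13.5), 3.14-fold fewer (2.22 to 4.51). Per kilobase of exon the ratios were 56.9 and 18.1. The log2 change went from -1.65 to -1.02 (-1.54 to -0.512) with the correction for length and GC. Against Bckdha, whose product both enzymes act on, Bckdk went from 0.644 (0.606 to 0.684) to 0.5504 (0.514 to 0.589) counts for each count, and Ppm1k from 0.0184 (0.0136 to 0.0245) to 0.0495 (0.0409 to 0.0595). After correction for length and GC the log2 change of Bckdk over Bckdha was -0.62 (-0.747 to -0.483) and that of Ppm1k over Bckdha 0.40 (-0.098 to 0.917), an interval that includes 0. These rest on 49 Ppm1k counts in the WT-labelled library, and transcript ratios do not give the phosphorylation of the complex.

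**Figure D2:**
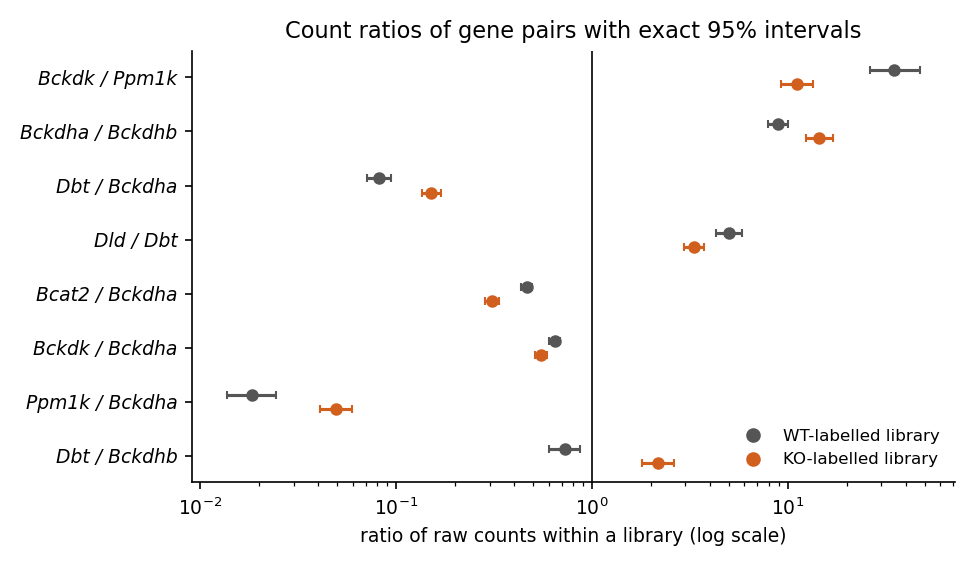
Count of the first gene divided by that of the second within the WT-labelled (grey) and the KO-labelled (orange) library, on a log axis, with exact 95% intervals of counting error. The Bckdk to Ppm1k ratio is 34.9 and 11.1, and the Dbt to Bckdhb ratio lies below 1 at 0.726 in the WT-labelled and above it at 2.18 in the KO-labelled library.

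By CPM per kilobase the order in the WT-labelled library was Bckdha, Bckdk, Bcat2, Dld, Bckdhb, Dbt, Ppm1k and Bcat1. Bcat2 and Dld were neighbours whose intervals overlapped (25.97, 24.5 to 27.5, and 24.2, 22.8 to 25.7). In the KO-labelled library Dld stood above Bcat2 and Dbt above Bckdhb, and the intervals of Bckdk and Dld (28.3 and 25.8) overlapped, as did those of Dbt and Bckdhb (8.58 and 7.31). With the longest transcript as the length, Bcat2 came above Bckdk in the WT-labelled library, and Dld above Bckdk and Bckdhb above Dbt in the other. Bckdha took 36.6% and Bckdk 23.6% of the counts of the 8 genes in the WT-labelled library, and 38.0% and 20.9% in the KO-labelled library. Together the 8 genes summed to 595.9 and 500.4 CPM.

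Over the 7 counted members the log2 ratio ran from -0.90 to 1.23, with a median of -0.20, against 0.00 over all genes counted. After correction for length and GC it ran from -0.66 to 0.65 with a median of -0.07. The counting interval lay wholly above equality for 2 members and wholly below for 4, while among all genes 35.6% lay wholly above and 34.7% wholly below. With the correction for length and GC the interval lay wholly above for 3 members, wholly below for 3 and held equality for 1. With a limit of 1.5-fold 2 members were called higher (Ppm1k and Dbt) and 2 lower (Bckdhb and Bcat2), against 21.1% and 18.9% of all genes. Counting intervals were narrow for the members with most counts and wider for Ppm1k (ratio 1.66 to 3.33 on 169 counts). Such an interval says nothing on variation between mice or library preparations.

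**Figure D3:**
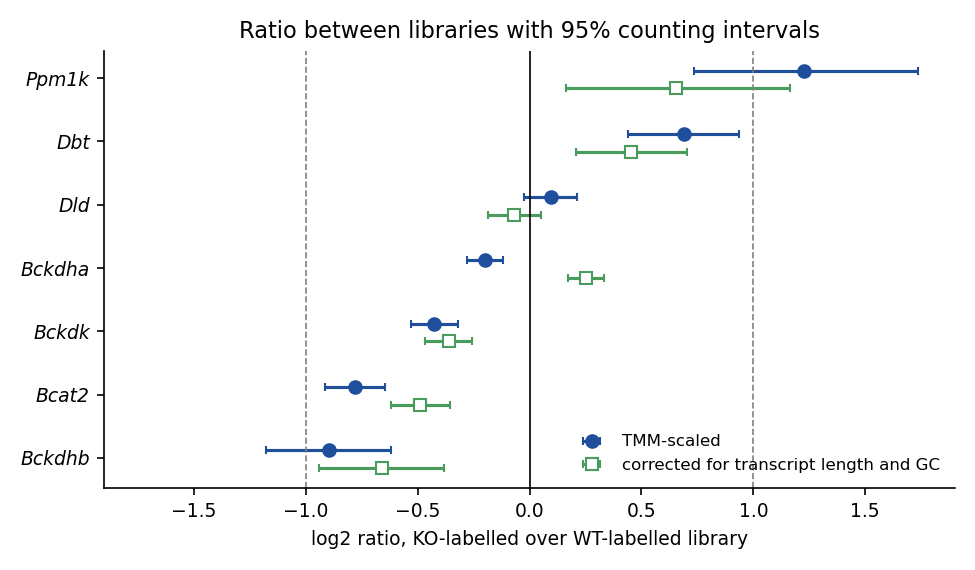
Log2 ratio of the KO-labelled over the WT-labelled library for the 7 counted genes (blue, TMM-scaled; green squares, corrected for length and GC), with 95% counting intervals and dashed lines at 2-fold. Ppm1k passes the dashed line at 1.23 before correction and not after it at 0.65, Bckdha and Dld change side, and Bckdhb, Bcat2 and Bckdk stay below 0 while Dbt stays above.

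Among the 7 counted members, higher ratios tended to go with longer transcripts and lower GC content. Bckdk, at 3405 bases, nonetheless lay below equality. The 12381 genes counted with a known length and GC content were split into 5 bins of near-equal size. By length, the median log2 ratio was 0.51 in the bin with the longest transcripts (from 4995 bases). In the bin with the shortest (up to 1583 bases) the median log2 ratio was -0.49. By GC content it was 0.37 in the lowest bin (up to 43.97%) and -0.36 in the highest (from 55.4%). The longest transcript of Ppm1k has 5560 bases, Bckdk 3405, Dbt 3301, Dld 2544, Bcat2 2081, Bckdha 1899 and Bckdhb 1477. The members above equality, Ppm1k, Dbt and Dld, had the lowest GC content, at 39.9%, 42.1% and 40.6%, while the other 4 had 50.3% to 57.9%. Spearman's rho of the log2 ratio was 0.71 with length and -0.64 with GC content over the 7 genes, which share the same libraries. After correction for length and GC it was 0.64 and -0.46. Transcript length, GC content and the labelled genotype cannot be told apart for a single gene in a pair of libraries.

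**Figure D4:**
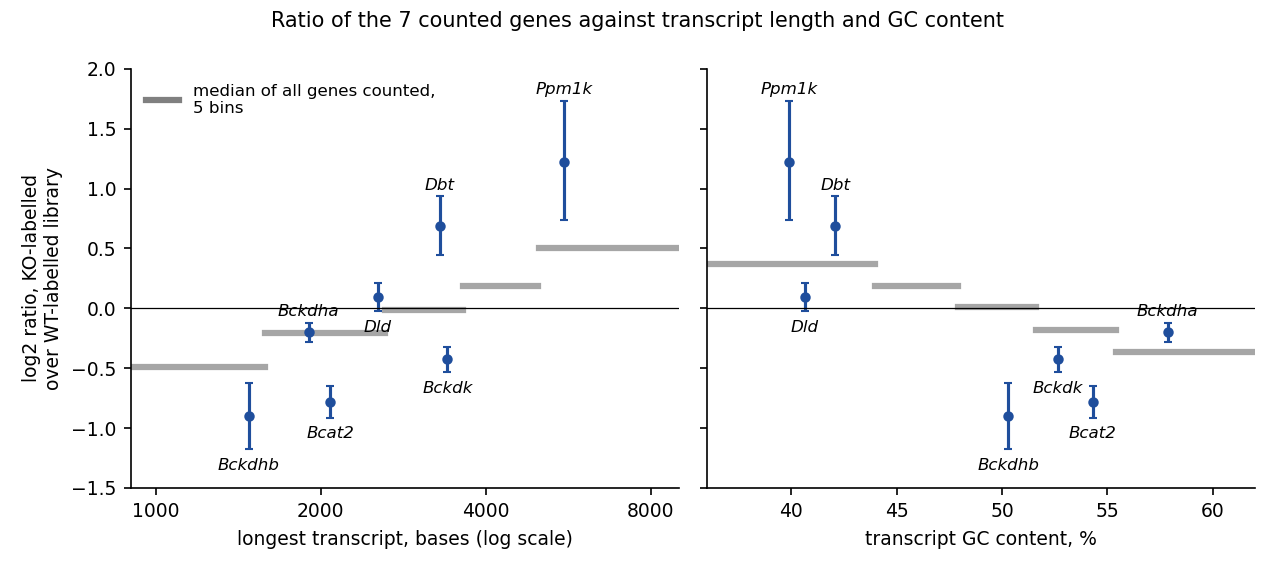
Log2 ratio of each counted member with its 95% counting interval against the length of its longest transcript (left, log axis) and its GC content (right). Grey bars give the median of the 12381 genes counted with a known length and GC content, in each of 5 bins. The grey bars climb from -0.49 to 0.51 with length and go down from 0.37 to -0.36 with GC content, and Ppm1k, at 5560 bases and 39.9% GC, stands above the bars in both panels.

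The steps after the BCKDH complex did not differ past the rule. Of 25 genes of leucine, isoleucine and valine breakdown and of propionate use found in the table, 24 were counted. Of these 0 were called, 8 lay above equality and 16 below, with a median log2 ratio of -0.18, and 19.8% of all genes were called. By CPM per kilobase the most abundant over both libraries was Hsd17b10, a dehydrogenase of the isoleucine branch, at 58.4 and 32.1 (Acads, an acyl-CoA dehydrogenase gene, stood above it in the KO-labelled library at 33.5) and a ratio 1.82-fold lower in the KO-labelled library (1.63 to 2.03). Genes named outside the rule, after their values were seen, were those at the upper end. Acadsb, the short branched-chain acyl-CoA dehydrogenase of the isoleucine branch, was 1.86-fold higher (1.54 to 2.27) at 162 against 316 counts, and Mut, methylmalonyl-CoA mutase, 1.82-fold higher (1.51 to 2.20) at 175 against 333. Corrected for length and GC, the log2 ratio of Acadsb went from 0.90 to 0.33 (0.049 to 0.609). That of Mut went from 0.86 to 0.57 (0.302 to 0.843), and that of Hsd17b10 from -0.86 to -0.48 (-0.634 to -0.322). After correction for length and GC 1 of 24 was called lower, against 5.48% of genes with a known length and GC content. It was Hibadh of the valine branch (log2 -1.21, from -0.58).

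Of 13 genes for transporters of large neutral amino acids or their sensing at the lysosome, 9 were counted, 2 were called higher and 0 lower, against 10.8% and 8.95% of all genes, with a median of -0.23. Slc43a2, a facilitated transporter of large neutral amino acids, had 473 and 1295 counts, a ratio of 2.62 (2.35 to 2.91), and a log2 ratio of 1.39 that became 1.06 with the correction for length and GC but 0.87 for length alone. Slc38a9, the lysosomal arginine sensor and amino acid transporter, had 292 and 678 counts, a ratio of 2.22 (1.93 to 2.55), which came under 2-fold after correction (log2 0.45). Slc3a2, the heavy chain of the leucine exchanger, was the most abundant, with 2212 and 1307 counts, and stood 1.77-fold lower in the KO-labelled library (1.65 to 1.898). The other 4, Slc6a14, Slc6a15, Slc6a17 and Slc6a19, had 0 counts in both libraries.

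Among 12 genes that make or use the glutamate and alpha-ketoglutarate of the aminotransferase step, 11 were counted, 1 was called higher and 0 lower, beside 10.8% and 8.95% of all genes. Their median of -0.20 turned to 0.05 after correction. The called gene was Glul, glutamine synthetase, with 1228 and 2773 counts, a ratio of 2.16 (2.02 to 2.31) and a log2 ratio of 1.14 after correction. Glud1, glutamate dehydrogenase, was the most abundant over both libraries, at 62.6 and 92.3 CPM per kilobase and a ratio of 1.47 (1.41 to 1.54), while Idh2 was above it in the WT-labelled library at 89.3. Idh2, mitochondrial isocitrate dehydrogenase, named after its value was seen, had a log2 ratio of -0.98 and was past 2-fold with upper quartile scaling and without abundant classes. With the correction for length alone the gene called lower was Gpt2, a mitochondrial alanine aminotransferase also named after its values were seen, at 100 and 55 counts (log2 -1.02, from -0.93), and Idh2 stood at -0.75.

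Genes of the sister complexes that share Dld or the same kind of control were set beside the members, and each count called here stands against 10.8% of all genes called higher and 8.95% lower. Of 12 other keto acid dehydrogenase and glycine cleavage genes, 7 were counted and 0 called, with log2 ratios from -0.60 to 0.35 and a median of 0.07. Ogdh, of the alpha-ketoglutarate complex, was the most abundant, with 3112 and 3294 counts and a ratio of 1.01 (0.963 to 1.06), whose log2 value of 0.02 turned to -0.03 after correction. In the list of pyruvate dehydrogenase kinases and phosphatases and relatives of Ppm1k, 11 of 12 were counted, 2 were called higher and 0 lower, and the median was 0.33. The kinase gene Pdk1 had 686 and 1638 counts, a ratio of 2.28 (2.09 to 2.497), and Pdpr, the phosphatase regulatory subunit gene, had 429 and 1009, a ratio of 2.25 (2.005 to 2.52). Both came under 2-fold with the correction for length and GC (log2 0.80 and 0.86). Pdk2, another kinase gene, named after its values were seen, was also higher in the KO-labelled library. Its log2 ratio rose with that correction, from 0.65 to 1.03, and it was then called higher. Ppm1g, the most abundant, was 1.38-fold lower (1.31 to 1.46). Of 9 genes of lipoic acid supply, which Dbt needs for its prosthetic group, 9 were counted, 0 called higher and 1 lower, with a median of -0.36. It was Fdx1l, a ferredoxin gene, with 259 and 120 counts, 2.26-fold lower (1.81 to 2.83), a log2 ratio of -1.18 that became -0.39 after correction. Iscu, the iron-sulphur scaffold gene, was the most abundant of that list per kilobase over both libraries, at 730 and 640 counts, with Gcsh above it in the WT-labelled library.

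**Figure D5:**
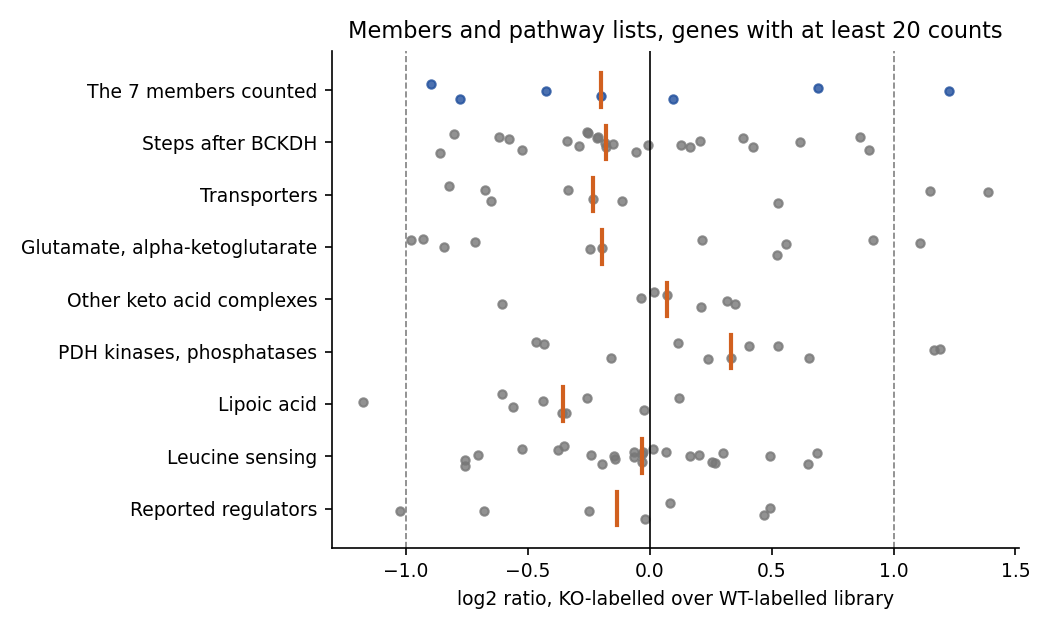
Log2 ratio of every counted gene of the members (blue) and of the 8 pathway lists (grey), with the median of each list as an orange bar and dashed lines at 2-fold. Medians lie between -0.36 and 0.33, and most points of each list lie between the dashed lines. Mycn, at 0 counts in the KO-labelled library, is not drawn.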

How the data were processed

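Values are raw counts per gene as deposited by the authors for 2 RNA libraries, 1 per group. HISAT2 2.0.4 and mm10 are named per the submitters' processing notes; the counting program, annotation, strand setting and treatment of multiply matching reads were not given in the sources used here. Counts were scaled by TMM (edgeR 4.0.16, R 4.3.3) over all genes. Ratios carry Clopper-Pearson 95% intervals (from the share of counts in 1 library), levels exact Poisson intervals, and changes of pair ratios conditional exact intervals (scipy 1.17.1). Reads are not independent molecules, so intervals and the limit of 3 counts cover counting error only. List medians used log2 ratios with 0.5 added to each count. Lengths, GC content and positions came from GENCODE M21 by symbol and covered 92.7% of genes counted. The correction subtracted a smooth fit (mgcv 1.9.3) of the log2 ratio on transcript length, or length and GC content, centred on its median. Interval coverage was checked only on simulated independent Poisson counts, the model the intervals assume, so the check does not show coverage for real libraries. Members, lists and tests were chosen with earlier results of these data known. Named genes were the members, P2rx7, Kit, Itgam, up to 3 called genes a list in each direction and each list's most abundant gene. Alternatives were other scalings (total count, DESeq2 1.42.0, upper quartile, without abundant classes), count minimums, fold limits and added counts.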

Additional observations from a re-analysis of the deposited data

How the results depend on the processing

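The count of members called higher was 1 and of members called lower 0 under the 4 other scalings and with a count minimum of 10, 50 or none. The count called higher became 0 with the length correction and 0 with the length and GC correction. With a limit of 1.5-fold the counts were 2 higher and 2 lower. Over all genes 1447 were called higher and 1196 lower, against 2825 and 2521 at 1.5-fold. Over the 12381 of these 13363 genes with a length, 1021 were called higher and 758 lower with the length correction, and 1004 and 679 with length and GC. The cause was not tested. The log2 ratios of all 7 counted members stayed within their counting intervals under the 4 scalings. With the length correction 3 moved outside them (Bcat2, Bckdha and Bckdhb), and with the length and GC correction 4 did (Bcat2, Bckdha, Dld and Ppm1k). Ppm1k came under 2-fold with both. Depth limits Bcat1 and Ppm1k most, with 1 and 169 counts over both libraries. No paired analysis was possible because each group has 1 library.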

Other observations

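Leucine also signals to the growth kinase mTORC1, through sestrins, leucyl-tRNA synthetase and the Rag GTPases with their lysosomal anchor and regulators. Of 26 genes of this branch 25 were counted, and 0 were called at least 2-fold apart, against 19.8% of all genes counted. Their log2 ratios ran from -0.76 to 0.68 with a median of -0.03, and -0.06 with the length and GC correction. After that correction 0 were called as well, against 13.6% of genes with a known length and GC content. Lamtor4, a subunit of the lysosomal anchor, was the most abundant per kilobase, with 1614 counts in the WT-labelled and 1176 in the KO-labelled library, 1.44-fold lower in the latter (1.33 to 1.55). Its log2 ratio of -0.52 was -0.10 (-0.207 to 0.012) with the length correction and turned to 0.09 (-0.019 to 0.2) with length and GC.

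Of 11 genes reported elsewhere to regulate Bcat1, Bckdk or Ppm1k, 8 were counted, 0 were called higher and 2 lower, against 10.8% and 8.95% of all genes. Mycn, a MYC family gene, had 191 counts in the WT-labelled library and 0 in the KO-labelled library. By the nearer bound of the counting interval it was at least 53.7-fold lower. With 3 counts set for the KO-labelled library it was 66.6-fold lower. Atf4, a stress-response transcription factor gene, had 6567 and 3383 counts and was 2.03-fold lower (1.95 to 2.12). It came under 2-fold with DESeq2 and total count scaling and with both corrections. The median of this list was -0.13, and -0.13 with Mycn at its limit. Klf15, a transcription factor gene of branched-chain amino acid breakdown, had 0 counts in both libraries. Msi2 and Ezh2, named after their values were seen and reported as regulators of Bcat1 in myeloid leukaemia, had ratios of 1.06 (0.854 to 1.32) and 0.986 (0.919 to 1.06). With the length and GC correction Msi2 went from a log2 ratio of 0.08 to -0.53 (-0.839 to -0.215) and Ezh2 from -0.02 to -0.13 (-0.235 to -0.030). Myc and Hif1a of the same list, also named after their values were seen, differed more. Myc was 1.60-fold lower in the KO-labelled library (1.52 to 1.69) and Hif1a 1.41-fold higher (1.27 to 1.56). Their log2 ratios with that correction were -0.45 (-0.528 to -0.381) and 0.04 (-0.108 to 0.193). Bcat1 was at the limit of detection in both libraries.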
